A study of Rattus norvegicus with 19 samples.

Results

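Rat spinal cord cultures exposed to polyphosphate were compared with cultures exposed to medium from mutant SOD1 astrocytes, gene by gene and library by library. All 11887 genes that reached 1 FPKM (fragments per kilobase of transcript per 1000000 fragments) in at least 4 of the 19 libraries were taken, out of 15597 genes in the deposited table. Sprague-Dawley rat embryos at day 14 gave the ventral spinal cord cells, and the cultures hold neurons and glia. The polyP group (n = 5) received long-chain synthetic polyphosphate at 100 μM. The mutSOD1-ACM group (n = 5) received medium conditioned by primary spinal cord astrocytes of newborn SOD1G93A transgenic mice, which carry human SOD1 with the G93A change. The wtSOD1-ACM group (n = 4), whose medium came from astrocytes expressing wild-type human SOD1, and the untreated control group (n = 5) are given for context. Each exposure lasted 90 min. The conditioned medium was the neuronal growth medium left on the astrocytes for 7 days and then supplemented with glucose, so any component that this changed could differ between the polyP and mutSOD1-ACM groups, not only polyphosphate. On culture age the labels differ, with 7 days in vitro in one field and 4 days in another.

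Polyphosphate is an unbranched chain of phosphates made by cells from bacteria to mammals, and in the nervous system it is known to be released by astrocytes. Mutations of SOD1, a superoxide dismutase, underlie part of inherited amyotrophic lateral sclerosis (ALS), and medium from astrocytes with mutant SOD1 is known to be toxic to motor neurons in culture. Immediate early genes such as Egr1 and Fos are transcribed within minutes of calcium entry, growth factor signalling or synaptic activity, without new protein synthesis, and feedback inhibitors such as Smad7 are transcribed when TGF-beta receptors signal.

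The table gives no fragment totals. Relative depth, recovered from 106 rarely detected genes, ran from 0.814 to 1.35 of the median library over the 10 libraries compared. Libraries with the same replicate number deviated together from their group means, with correlations across genes of 0.688 to 0.764. Replicates 1 and 2, and replicates 4 and 5, did so about as closely across numbers, at 0.675 to 0.755. Clustering put replicates 1 to 3 of both groups in a first set and replicates 4 and 5 in a second. This division was found in the data and the labels name no batch. Every replicate number is present in both groups, so values within pairs or within sets could be set beside the pooled ones, as is done for some results below. Defining neuronal markers were present in all 10 libraries, but Chat, the acetylcholine-synthesising enzyme of motor neurons, averaged 0.560 ± 0.194 FPKM in polyP and 0.772 ± 0.364 FPKM in mutSOD1-ACM cultures (mean ± SD, n = 5 each, as for every mean of these 2 groups below) and was too low to be tested. The summed FPKM of a library was 1.05 times higher with polyP (502342 ± 12154 in polyP and 476788 ± 7689 in mutSOD1-ACM cultures, SD, n = 5 each; exact two-sided permutation p = 0.016, where 0.0079 is the smallest possible), and it was higher in all 5 same-numbered pairs.

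The cultures exposed to polyP differed from those exposed to mutSOD1-ACM in many genes, mostly by little. In the limma fit on log2(FPKM + 1), 1760 genes were higher with polyP (14.8% of the 11887 tested) and 582 were lower (4.9%), at an adjusted p under 0.05. The median log2 difference was 0.26 among the genes called higher and -0.36 among those called lower, against 0.04 over all genes tested. Larger differences on this log2(FPKM + 1) scale lay on the lower side. By 1.5-fold or more, 80 called genes were lower and 10 higher. By 2-fold or more, 12 were lower and 1, known only by an identifier, was higher. The added 1 shrinks the folds of low genes in both directions. In FPKM the ratio of the group means was 3.07 for Ddit4l2 and 2.00 for Meox2, both called higher, and 0.29 for Gal, called lower. Values of the 5 polyP and 5 mutSOD1-ACM libraries did not overlap for 1465 higher genes (12.3% of those tested) and 466 lower genes (3.92%). The sign of the difference was equal in the first and the second set of libraries for all 2342 called genes. The calls were made on these same libraries pooled, so equal signs are largely built in and are no separate support. With the replicate number as a block, 3669 genes were higher (30.9%) and 2118 lower (17.8%), together 48.7% of those tested. Of the 2342 calls 2341 were kept. The block leaves each log2 difference as it is and takes out spread shared by same-numbered libraries, so keeping calls is no separate support. The share of calls that were higher, 75.1%, depended on scaling: it was 50.3% after median-of-ratios scaling (742 higher, 732 lower), 51.3% after setting the summed FPKM equal (787 higher, 746 lower) and 64.6% after quantile normalization (1115 and 612 genes). Counts of genes called higher in a list are given below with the counts under these 3 scalings, in that order, where they differ. List counts stand against shares over all genes of 14.8% higher and 4.9% lower, and of 30.9% and 17.8% with the block.

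**Figure D1:**
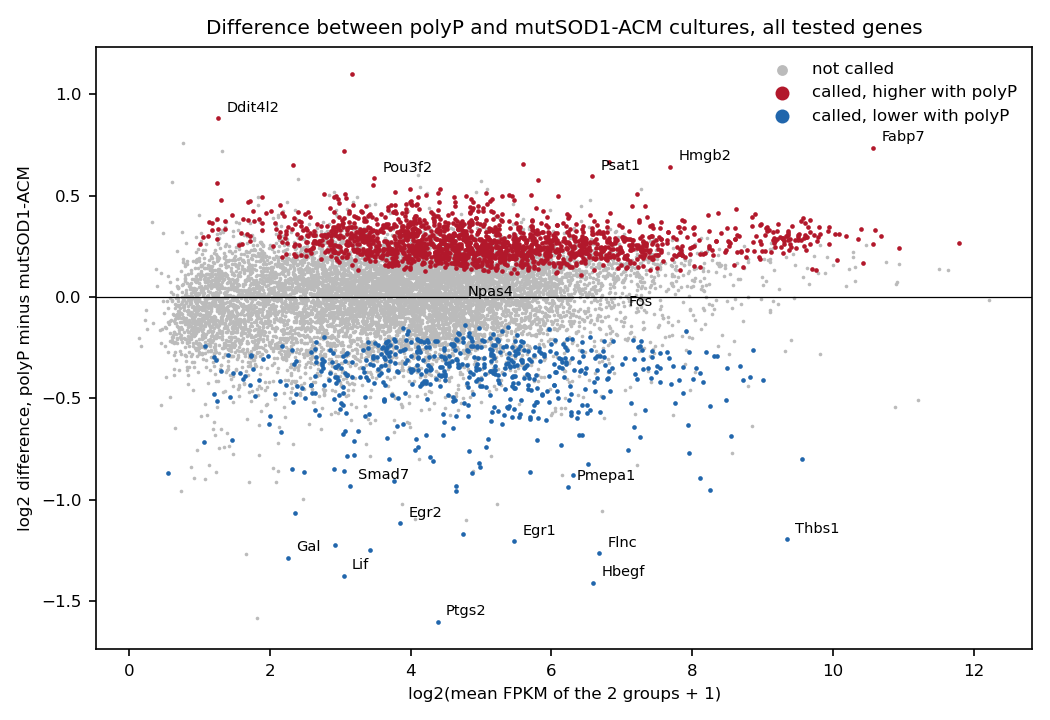
Log2 difference of polyP minus mutSOD1-ACM (vertical axis, log2 of FPKM + 1) against the mean level of the 2 groups (horizontal axis, log2 scale) for the 11887 genes tested, 1 point per gene, coloured by call. Called falls reach -1.60 (Ptgs2), while nearly all called rises lie below 1; the 1 point above 1 has only an identifier for a name.

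Transcripts that activity and growth factors induce led the falls. Ptgs2 (29527), the inducible cyclooxygenase that starts prostaglandin synthesis, stood at 8.76, 10.8, 12.0, 7.82 and 7.69 FPKM in polyP libraries 1 to 5, against 29.8, 31.3, 30.5, 25.1 and 35.3 FPKM in mutSOD1-ACM libraries 1 to 5. The highest polyP value was less than the lowest mutSOD1-ACM value in this gene. Its log2 difference was -1.60 (SE 0.11; limma adjusted p = 4.47e-07), and the mean was 9.41 ± 1.91 FPKM with polyP and 30.4 ± 3.64 FPKM with mutSOD1-ACM (SD, n = 5 each). Egr1 (24330), a zinc-finger transcription factor of the immediate early class, gave 27.0, 27.5, 32.5, 21.5 and 21.0 FPKM with polyP, against 63.9, 65.9, 55.8, 49.5 and 68.1 FPKM with mutSOD1-ACM. The groups did not overlap, and the log2 difference was -1.20 (SE 0.14; limma adjusted p = 7.63e-05). Egr2 (114090), its relative with a known part in Schwann cell myelination, gave 8.41, 8.07, 10.7, 5.99 and 7.71 FPKM in polyP cultures, against 16.7, 18.2, 17.5, 18.6 and 22.6 FPKM in mutSOD1-ACM cultures (log2 difference -1.12, adjusted p = 5.88e-05). All polyP values again lay under all mutSOD1-ACM values. Hbegf (25433), a membrane-anchored ligand of the EGF receptor, stood at 56.1, 57.2, 64.5, 36.0 and 48.0 FPKM with polyP, against 129, 141, 154, 121 and 149 FPKM with mutSOD1-ACM, a log2 difference of -1.41 (SE 0.12; adjusted p = 5.64e-06). The same gap without overlap was present, and the ratio of the group means was 0.377.

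Promoter windows of 4 of these strongly lower genes are shown because they hold a motif of a factor that acts downstream of growth factor or calcium signalling. Of the 20 genes named for the size of their difference, 17 had a RefSeq promoter entry (assembly GRCr8, 250 bases before to 50 after the start), and both strands were searched for 5 motifs: the cAMP response element TGACGTCA, the AP-1 site TGANTCA, the EGR site GCGTGGGCG, the SMAD palindrome GTCTAGAC and the CArG box bound by the serum response factor. No motif of the 5 was found in the windows of the other 13. The lines run 5′ to 3′ on the gene's strand, and capitals mark the matches.
Egr1, chr18:26736828-26737127, plus strand, CArG boxes: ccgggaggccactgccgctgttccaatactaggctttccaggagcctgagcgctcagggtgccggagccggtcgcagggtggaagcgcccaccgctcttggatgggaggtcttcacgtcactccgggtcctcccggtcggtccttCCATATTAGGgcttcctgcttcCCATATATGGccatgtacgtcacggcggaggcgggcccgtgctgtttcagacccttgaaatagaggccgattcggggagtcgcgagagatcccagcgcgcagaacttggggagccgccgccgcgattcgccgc
Egr2, chr20:21054392-21054691, minus strand, CArG box: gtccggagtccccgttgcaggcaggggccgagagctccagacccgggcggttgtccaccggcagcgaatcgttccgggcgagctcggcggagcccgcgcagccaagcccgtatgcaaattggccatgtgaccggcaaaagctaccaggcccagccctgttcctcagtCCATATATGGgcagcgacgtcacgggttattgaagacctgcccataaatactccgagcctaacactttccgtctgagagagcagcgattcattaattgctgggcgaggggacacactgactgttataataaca
Plaur, chr1:89181113-89181412, plus strand, AP-1 site: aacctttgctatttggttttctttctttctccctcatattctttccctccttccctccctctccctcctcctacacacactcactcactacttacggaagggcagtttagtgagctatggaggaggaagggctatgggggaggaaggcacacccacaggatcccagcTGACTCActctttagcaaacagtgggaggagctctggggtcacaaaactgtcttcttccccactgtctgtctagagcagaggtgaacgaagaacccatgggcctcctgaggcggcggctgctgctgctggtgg
Epha2, chr5:158888379-158888678, plus strand, cAMP response element: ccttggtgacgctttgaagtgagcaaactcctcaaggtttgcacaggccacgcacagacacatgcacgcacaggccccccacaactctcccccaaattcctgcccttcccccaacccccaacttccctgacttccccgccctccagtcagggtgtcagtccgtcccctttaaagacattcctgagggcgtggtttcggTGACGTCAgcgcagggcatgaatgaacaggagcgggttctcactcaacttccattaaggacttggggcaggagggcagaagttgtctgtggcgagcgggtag
The CArG boxes of Egr1 began 105 and 83 bases before the start, that of Egr2 began 83 bases before it, the AP-1 site of Plaur 83 bases and the cAMP response element of Epha2 52 bases before it. A CArG box stood in 1.19% of the 10064 promoter windows of tested genes and in 1.64% of all 33469 windows in the table. The AP-1 site stood in 4.89% of the windows of tested genes and 7.33% of all windows, and the cAMP response element in 3.31% and 1.83%. Among the 52 windows of genes called lower by 1.5-fold or more, 3 held a CArG box (5.77%), 4 an AP-1 site (7.69%) and 6 a cAMP response element (11.5%). The 4 genes shown are among them. Among the 457 windows of all genes called lower the shares were 1.53%, 5.91% and 3.94%, closer to those of tested genes. The EGR site stood in 1.05% of the windows of tested genes and the SMAD palindrome in 0.209%. Each stood in 1 of the 52 windows (1.92%), and in 2.63% and 0.656% of the 457. A match is a description of the letters in the window and no test was made.

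The fall was not shared by all immediate early genes. Of 35 tested genes of the rapid immediate early list, 17 were lower with polyP and none was higher, with a median log2 difference of -0.33; 22 were lower with the replicate block. Ier5l (499772) stood at 19.8, 22.8, 22.7, 21.8 and 20.7 FPKM in polyP cultures, against 37.2, 41.8, 39.1, 34.3 and 42.1 FPKM in mutSOD1-ACM cultures (log2 difference -0.82, limma adjusted p = 5.64e-06). Its 2 groups were far apart relative to their spread. Trib1, a pseudokinase, averaged 11.9 ± 1.63 FPKM in polyP and 19.8 ± 1.72 FPKM in mutSOD1-ACM cultures (adjusted p = 0.000335). Fos (314322), the classic member of the class and a subunit of AP-1, gave 163, 137, 139, 89.1 and 78.1 FPKM in polyP libraries 1 to 5, against 141, 159.7, 164, 76.7 and 98.8 FPKM in mutSOD1-ACM libraries 1 to 5. These groups overlapped almost wholly (log2 difference -0.07, 95% interval -0.64 to 0.49, adjusted p = 0.889), and replicates 4 and 5 were lower than replicates 1 to 3 under both exposures. Npas4 (266734), a neuron-specific factor induced by calcium entry, gave 37.2, 27.9, 34.6, 12.4 and 10.7 FPKM with polyP, against 26.7, 33.7, 39.7, 8.17 and 17.7 FPKM with mutSOD1-ACM (log2 difference -0.03, adjusted p = 0.983). The interval of that difference, -1.07 to 1.01, is wide, so a difference of up to about that size in either direction was not detectable here. Bdnf, the neurotrophin gene that follows calcium signals, averaged 8.79 ± 1.21 FPKM in polyP and 9.25 ± 1.09 FPKM in mutSOD1-ACM cultures (95% interval of the log2 difference -0.31 to 0.17, adjusted p = 0.753).

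Among delayed activity-regulated genes, 5 of 26 were lower and none higher (median log2 difference -0.16); with the replicate block 12 were lower and 2 higher, and without mutSOD1-ACM library 4 the number lower was 8. Vgf, a secreted neuropeptide precursor, averaged 182 ± 17.5 FPKM with polyP and 312 ± 42.1 FPKM with mutSOD1-ACM (log2 difference -0.77, limma adjusted p = 0.000136). Pim1, a kinase gene that cytokines induce, averaged 31.1 ± 4.05 FPKM with polyP and 46.9 ± 5.35 FPKM with mutSOD1-ACM (adjusted p = 0.00176). Of 20 genes of MAPK feedback and growth signalling, 9 were lower and 2 higher (median -0.30). The number lower fell to 5 when polyP library 4 or 5, or mutSOD1-ACM library 1, 2 or 5, was left out. Phlda1, an early growth-response gene, averaged 61.4 ± 3.49 FPKM in polyP and 91.8 ± 8.97 FPKM in mutSOD1-ACM cultures. Dusp2, a phosphatase that switches MAP kinases off, averaged 2.10 ± 0.192 FPKM with polyP and 3.80 ± 0.563 FPKM with mutSOD1-ACM (adjusted p = 0.00115 for Phlda1 and 0.00117 for Dusp2). Etv5, an ETS factor that FGF signalling induces, ran the other way, with 66.5, 68.1, 57.3, 72.2 and 68.6 FPKM in polyP cultures, against 51.0, 52.0, 44.2, 51.3 and 48.0 FPKM in mutSOD1-ACM cultures (log2 difference 0.42, adjusted p = 0.00078). So the genes of the list did not move together.

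**Figure D2:**
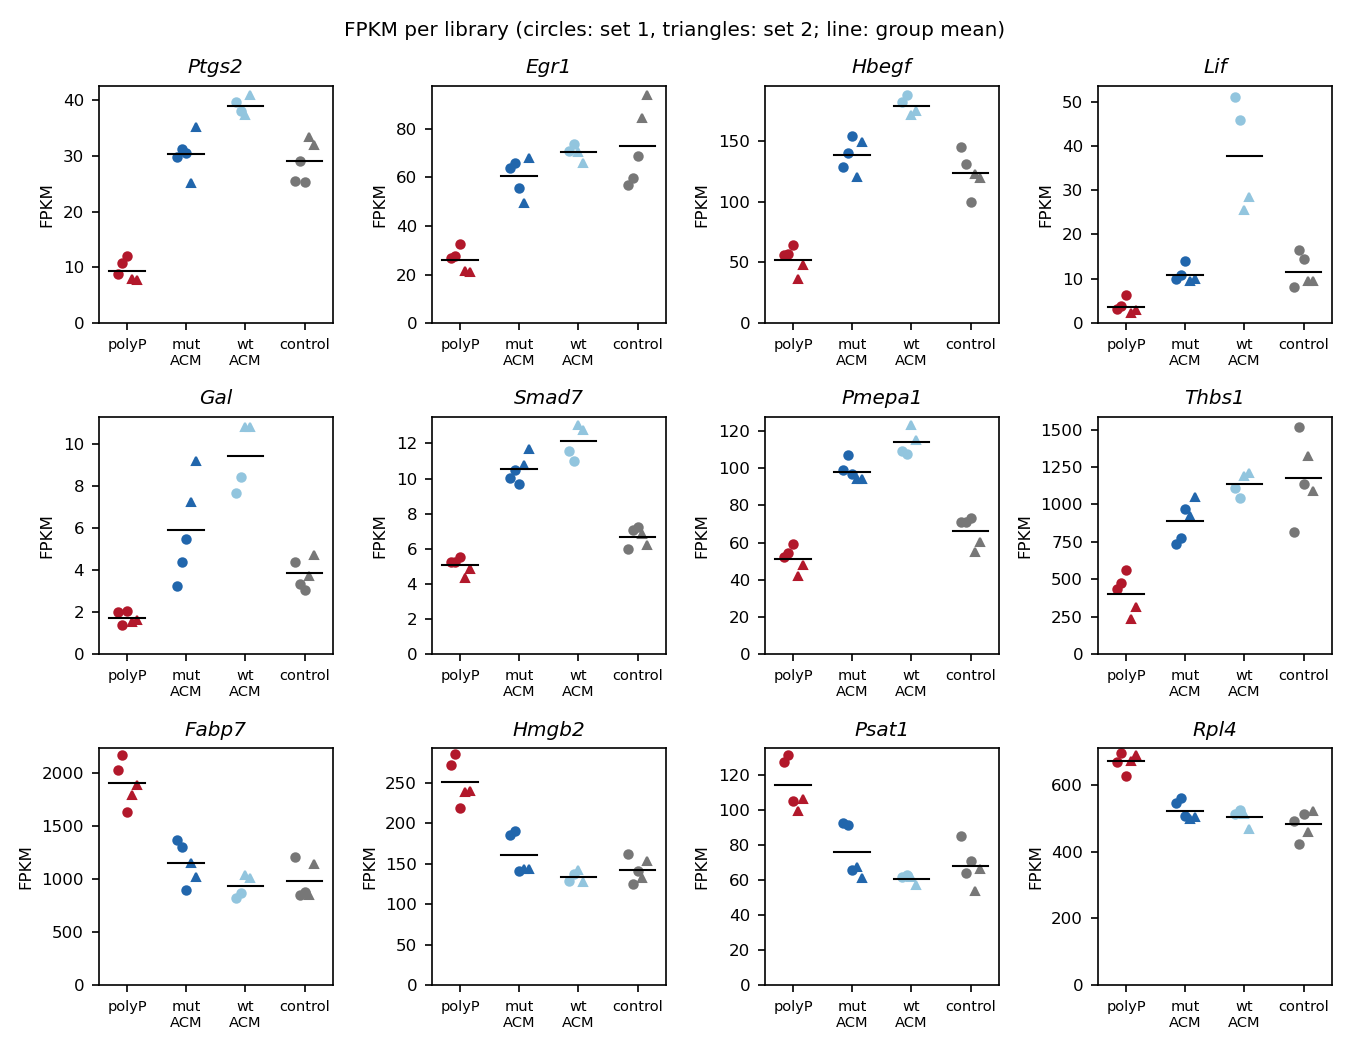
FPKM per library (vertical axes, from 0) of 12 named genes in polyP, mutSOD1-ACM, wtSOD1-ACM and control cultures, with circles for the first set of libraries, triangles for the second and a line at the group mean. In every panel the 5 polyP values lie wholly on 1 side of the 5 mutSOD1-ACM values, below them for Ptgs2 to Thbs1 and above them for Fabp7 to Rpl4.

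Smad7 and Pmepa1, feedback inhibitors of TGF-beta signalling, were lower with polyP and higher with mutSOD1-ACM than in control cultures. Smad7 (81516), the inhibitory SMAD that blocks the TGF-beta receptor, stood at 5.24, 5.23, 5.53, 4.36 and 4.87 FPKM in polyP libraries 1 to 5, against 10.0, 10.5, 9.66, 10.8 and 11.7 FPKM in mutSOD1-ACM libraries 1 to 5. Pmepa1 (311676), a membrane protein that binds SMADs and limits the same pathway, gave 52.2, 54.6, 59.1, 42.0 and 47.7 FPKM with polyP, against 98.9, 107, 96.7, 94.2 and 94.2 FPKM with mutSOD1-ACM. Neither gene's groups overlapped, and the spread within a group was small. The log2 difference was -0.93 for Smad7 (SE 0.07; limma adjusted p = 1.04e-06) and -0.94 for Pmepa1 (SE 0.09; adjusted p = 1.03e-05). Control cultures averaged 6.67 ± 0.558 FPKM of Smad7 and 66.3 ± 7.96 FPKM of Pmepa1, between the 2 exposures. These 2 genes were the only ones of 11887 called in mutSOD1-ACM cultures against control (0.0168%; 426 genes had an unadjusted p under 0.05), at log2 differences of 0.59 and 0.57 (adjusted p = 0.00232 and 0.0316). In polyP cultures against control, where 2736 genes were higher (23%) and 1043 lower (8.77%), their log2 differences were -0.34 and -0.37 (adjusted p = 0.00161 and 0.00406). Both comparisons use the same control libraries, so their values are set side by side and no overlap is counted. In wtSOD1-ACM cultures Smad7 averaged 12.1 ± 0.985 FPKM and Pmepa1 114 ± 7.13 FPKM (SD, n = 4).

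Of 16 tested TGF-beta and BMP targets, 10 were lower with polyP than with mutSOD1-ACM and none was higher, with a median log2 difference of -0.62 against 0.04 over all genes; the median was -0.72 without polyP library 2. The count was 10 or 11 under each scaling tried and 13 with the replicate block. Id3 (25585), an inhibitor of basic helix-loop-helix factors that BMP signalling induces, stood at 97.7, 112, 101, 94.0 and 93.9 FPKM in polyP cultures, against 190.1, 203, 154, 157 and 147 FPKM in mutSOD1-ACM cultures (log2 difference -0.76, limma adjusted p = 0.000208). The groups did not overlap. Its relative Id2 averaged 50.3 ± 4.69 FPKM with polyP and 72.4 ± 4.23 FPKM with mutSOD1-ACM (log2 difference -0.52, adjusted p = 0.000208).

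**Figure D3:**
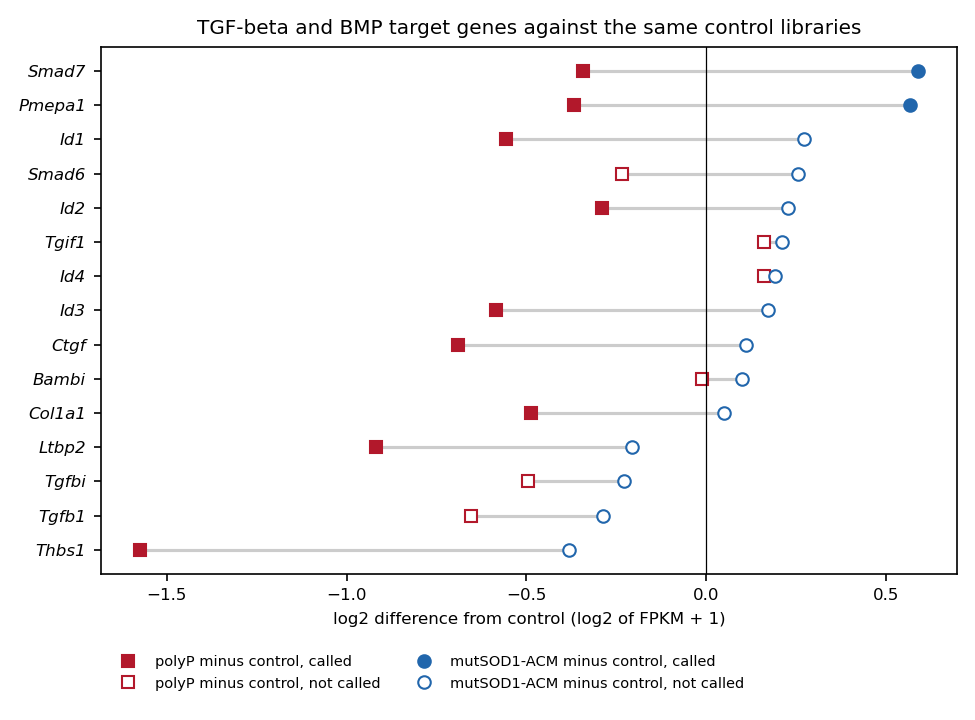
Log2 difference from the same 5 control libraries (horizontal axis, log2 of FPKM + 1) for 15 of the 16 tested TGF-beta and BMP targets, with squares for polyP, circles for mutSOD1-ACM and filled symbols for calls. Smad7 and Pmepa1 have the only filled circles, at 0.59 and 0.57, while their squares lie at -0.34 and -0.37.

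Extracellular matrix genes and genes of the plasminogen system were lower with polyP. Thbs1 (445442), the matrix glycoprotein thrombospondin 1 that activates latent TGF-beta and that astrocytes use to promote synapses, stood at 436, 476, 560.3, 236 and 311 FPKM in polyP libraries, against 735, 777, 973, 924 and 1050.0 FPKM in mutSOD1-ACM libraries. All 5 polyP values were lower, and by more in replicates 4 and 5: the log2 difference was -1.19 overall (SE 0.20; limma adjusted p = 0.00126), -0.75 in the first set of libraries and -1.86 in the second. Of 19 tested matrix genes 11 were lower and none higher, with a median of -0.50, and 17 were lower with the replicate block. Thbs1 stands in this list and in that of TGF-beta and BMP targets, so these lists are not separate. Fn1, fibronectin, averaged 287 ± 36.1 FPKM with polyP and 464 ± 59.9 FPKM with mutSOD1-ACM (log2 difference -0.69, adjusted p = 0.00204). Col5a1, a fibrillar collagen chain, averaged 62.0 ± 12.2 FPKM with polyP and 91.9 ± 5.26 FPKM with mutSOD1-ACM (adjusted p = 0.0033).

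Plaur (50692), the urokinase receptor, gave 5.58, 6.41, 6.26, 3.50 and 4.98 FPKM with polyP, against 12.7, 15.9, 15.7, 10.3 and 15.6 FPKM with mutSOD1-ACM (log2 difference -1.25, limma adjusted p = 0.000127). The groups did not overlap, and library 4 was the lowest of both. Of 14 genes of plasminogen activation and matrix proteolysis, 7 were lower and none higher (median -0.43); 10 were lower with the block. Plat, tissue plasminogen activator, averaged 195 ± 19.1 FPKM with polyP and 272 ± 29.8 FPKM with mutSOD1-ACM, and Mmp2, a gelatinase, 48.1 ± 5.01 FPKM with polyP and 67.2 ± 5.58 FPKM with mutSOD1-ACM (adjusted p = 0.00428 and 0.00515).

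Genes that YAP and the serum response factor drive with cytoskeletal tension split. Of 24 tested, 6 were lower, none was higher and the median was -0.02; the block and the second set of libraries alone gave 3 and 5 genes of the list higher, and 1 was higher without library 1 of either group. Flnc (362332), the actin cross-linker filamin C, stood at 53.1, 50.5, 94.7, 45.9 and 53.5 FPKM with polyP, against 99.2, 107, 177, 150.0 and 187 FPKM with mutSOD1-ACM (log2 difference -1.26, limma adjusted p = 0.00126). The highest polyP value, in library 3, came close to the lowest mutSOD1-ACM value, in library 1. Ctgf and Cyr61, matricellular proteins and standard readouts of YAP, averaged 549 ± 53.8 and 192 ± 28.3 FPKM with polyP, against 955 ± 92.7 and 357 ± 44.8 FPKM with mutSOD1-ACM (adjusted p = 0.000293 and 0.000705). Epha2 (366492), an ephrin receptor kinase outside this list, gave 13.9, 15.9, 15.3, 13.6 and 16.8 FPKM with polyP, against 27.1, 30.7, 28.7, 42.7 and 52.1 FPKM with mutSOD1-ACM. Its polyP values were nearly level across libraries, whereas its mutSOD1-ACM values were higher in replicates 4 and 5 (log2 difference -1.17, adjusted p = 0.00181).

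Cytokine and neuropeptide genes included some of the largest falls. Lif (60584), a cytokine of the interleukin-6 family that signals through STAT3, stood at 3.25, 3.78, 6.26, 2.35 and 2.87 FPKM in polyP cultures, against 10.0, 10.8, 14.1, 9.39 and 10.0 FPKM in mutSOD1-ACM cultures (log2 difference -1.38, SE 0.23; limma adjusted p = 0.00129). The groups did not overlap. Its wtSOD1-ACM mean was 37.8 ± 12.6 FPKM (SD, n = 4) and its control mean 11.6 ± 3.63 FPKM (n = 5). Gal (29141), the neuropeptide galanin, gave 1.98, 1.37, 2.05, 1.5 and 1.63 FPKM with polyP, against 3.23, 4.36, 5.47, 7.23 and 9.15 FPKM with mutSOD1-ACM. Within the mutSOD1-ACM group replicates 4 and 5 were the highest, and the log2 difference of -1.29 (adjusted p = 0.00055) was made up of -0.92 in the first set of libraries and -1.83 in the second. Clcf1, another cytokine of the same family, averaged 3.50 ± 1.95 FPKM with polyP and 9.70 ± 4.72 FPKM with mutSOD1-ACM, with wide spread in both (log2 difference -1.23, SE 0.33; adjusted p = 0.0146). Of 16 tested STAT3 cytokine targets 4 were lower and none higher (median -0.20, and -0.27 without polyP library 3); 9 were lower and 1 higher with the block. Junb, an AP-1 subunit, averaged 41.3 ± 8.70 FPKM with polyP and 68.1 ± 13.7 FPKM with mutSOD1-ACM (adjusted p = 0.00886), and Timp1, an inhibitor of metalloproteinases, 61.9 ± 7.01 FPKM with polyP and 89.1 ± 13.9 FPKM with mutSOD1-ACM (adjusted p = 0.0103).

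Some inflammatory genes were lower with polyP. Of 23 tested NF-kB targets 4 were lower and none higher (median -0.07), and 2 were lower when polyP library 1 or 4 or mutSOD1-ACM library 3 or 5 was left out; with the block 8 were lower and 3 higher. Cx3cl1, the neuronal chemokine fractalkine, averaged 34.4 ± 1.90 FPKM with polyP and 49.2 ± 2.87 FPKM with mutSOD1-ACM (log2 difference -0.51, limma adjusted p = 0.00107). Icam1, an adhesion molecule for leukocytes, averaged 10.7 ± 1.72 FPKM with polyP and 15.5 ± 1.45 FPKM with mutSOD1-ACM (log2 difference -0.50, adjusted p = 0.0289). The other two called were Tnfaip2, a TNF-induced gene, at 5.80 ± 1.49 FPKM with polyP and 8.71 ± 0.834 FPKM with mutSOD1-ACM (log2 difference -0.54, adjusted p = 0.016), and Nfkbiz, an inhibitor of the NF-kB family, at 1.64 ± 0.245 FPKM with polyP and 2.49 ± 0.281 FPKM with mutSOD1-ACM (log2 difference -0.40, adjusted p = 0.0243). Ccl2, a chemokine that recruits monocytes, gave 2.16, 1.79, 4.74, 2.55 and 3.87 FPKM with polyP, against 3.13, 3.33, 7.32, 2.37 and 3.97 FPKM with mutSOD1-ACM. Those values overlapped and did not pass the test (log2 difference -0.30, adjusted p = 0.529; 0.0416 with the block), while the wtSOD1-ACM cultures averaged 134 ± 37.4 FPKM (SD, n = 4). None of 15 interferon-responsive genes was called in the limma fit, where 19.7% of all genes were called in either direction. With the block 1 was higher and 1 lower. The lower one was Irf9, a transcription factor of the interferon response, at 5.92 ± 1.36 FPKM with polyP and 7.03 ± 2.13 FPKM with mutSOD1-ACM (adjusted p = 0.528, and 0.0297 with the block).

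Several genes of neural progenitors and of dividing cells were among the largest rises. Fabp7 (80841), the brain lipid-binding protein of radial glia, stood at 2025, 2164, 1631, 1789 and 1885 FPKM in polyP libraries 1 to 5, against 1364, 1304, 899, 1153 and 1014 FPKM in mutSOD1-ACM libraries 1 to 5. Every polyP value exceeded every mutSOD1-ACM value, and library 3 was the lowest of both groups (log2 difference 0.74, SE 0.13; limma adjusted p = 0.00157). Sox2 (499593), a transcription factor of neural stem cells, gave 68.0, 68.8, 70.2, 62.2 and 61.1 FPKM with polyP, against 50.6, 52.4, 50.0, 39.1 and 31.5 FPKM with mutSOD1-ACM (log2 difference 0.58, adjusted p = 0.0105). Pou3f2 (29588), a POU factor of neural progenitors, gave 12.4, 11.8, 10.5, 14.0 and 13.2 FPKM with polyP, against 8.53, 8.23, 7.22, 8.33 and 7.16 FPKM with mutSOD1-ACM (log2 difference 0.59, adjusted p = 0.00025). Both genes were higher in all 5 pairs, as follows from their lack of overlap. The list of radial glia and progenitor markers, from which Fabp7 and Sox2 come, had 4 of 11 tested members higher and none lower, with a median log2 difference of 0.06, close to that of all genes; 4, 3 and 4 were higher and 1 was lower under the 3 scalings, 1 was lower without polyP library 3 or 4 or mutSOD1-ACM library 2, and 2 were lower with the block. Hopx, a radial glial factor and another called member, stood at 11.5 ± 1.15 FPKM in polyP and 8.51 ± 0.994 FPKM in mutSOD1-ACM cultures (adjusted p = 0.00833). The summed level of that list was 4352 to 4701 FPKM over polyP libraries and 3462 to 3946 FPKM over mutSOD1-ACM libraries, and most of the gap between the mean sums, 4525 FPKM in polyP and 3709 FPKM in mutSOD1-ACM cultures, was that of Fabp7 alone, at a mean of 1899 FPKM in polyP and 1147 FPKM in mutSOD1-ACM cultures. In bulk RNA, more cells of a type and more RNA per cell cannot be told apart.

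Hmgb2 (29395), a chromatin protein of dividing cells, stood at 272, 285, 218, 238 and 239 FPKM with polyP, against 186, 191, 140.5, 144 and 143 FPKM with mutSOD1-ACM (log2 difference 0.64, SE 0.10; limma adjusted p = 0.00101). Pclaf (300795), a PCNA-binding factor of DNA replication, gave 66.3, 63.9, 56.5, 47.7 and 56.8 FPKM with polyP, against 44.6, 41.9, 38.5, 28.3 and 31.0 FPKM with mutSOD1-ACM (log2 difference 0.66, adjusted p = 0.00493). Neither gene had overlapping groups. Of 24 tested genes of DNA replication and the cell cycle 19 were higher and none lower, with a median of 0.33; 15, 13 and 17 were higher under median-of-ratios scaling, equal summed FPKM and quantile normalization. Mcm6 and Mcm7, subunits of the replicative helicase, averaged 58.6 ± 1.65 and 74.7 ± 4.55 FPKM with polyP, against 45.0 ± 4.29 and 58.3 ± 4.01 FPKM with mutSOD1-ACM (adjusted p = 0.000968 and 0.00126). Cdc20, the mitotic activator of the anaphase-promoting complex, averaged 40.2 ± 2.35 FPKM in polyP and 29.9 ± 2.93 FPKM in mutSOD1-ACM cultures (adjusted p = 0.000714). Of 10 histone genes 5 were higher and none lower (median 0.29, and 0.39 without polyP library 3; 4 higher under each scaling and 9 with the block), among them H2afz, at 454 ± 33.3 FPKM with polyP and 336 ± 26.3 FPKM with mutSOD1-ACM. Transcripts of replication-dependent histones lack a poly(A) tail, and the libraries were poly(A)-enriched, so their levels here are a part of the whole.

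The remaining large rises came from several classes. Ddit4l2 (140582), a member of a family known to inhibit mTORC1, stood at 2.37, 2.35, 1.47, 1.68 and 2.74 FPKM with polyP, against 0.820, 1.07, 0.50, 0.370 and 0.700 FPKM with mutSOD1-ACM (log2 difference 0.88, SE 0.17; limma adjusted p = 0.00262). S100a1 (295214), a calcium-binding protein, gave 5.40, 6.13, 5.31, 4.59 and 4.28 FPKM with polyP, against 3.92, 2.78, 2.70, 2.94 and 2.30 FPKM with mutSOD1-ACM (log2 difference 0.65, adjusted p = 0.00132). Both genes are expressed at a low level and showed no overlap. Meox2, a homeobox factor, averaged 1.83 ± 0.333 FPKM in polyP and 0.912 ± 0.237 FPKM in mutSOD1-ACM cultures (adjusted p = 0.00707). Plekhb1, a membrane-associated protein of the nervous system and retina, averaged 12.1 ± 1.02 FPKM in polyP and 8.03 ± 1.31 FPKM in mutSOD1-ACM cultures (adjusted p = 0.00204).

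**Figure D4:**
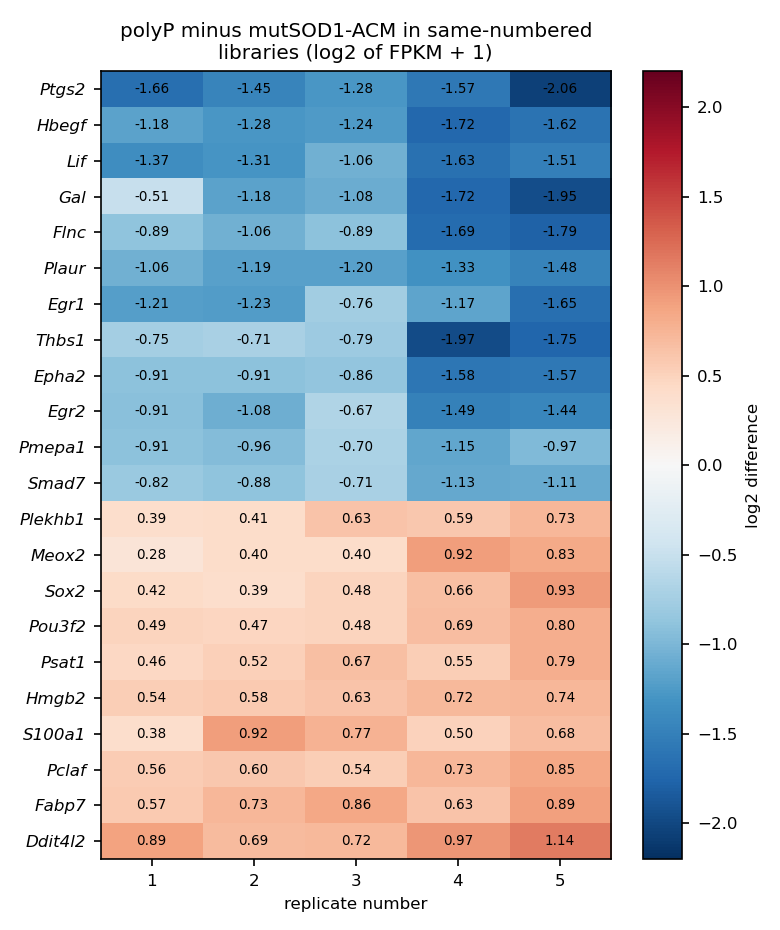
Log2 difference of polyP minus mutSOD1-ACM in libraries of the same replicate number (columns) for the 20 genes named for their size and for Smad7 and Pmepa1 (rows); blue is lower and red higher with polyP. Each of the 22 genes kept its sign in all 5 pairs, which follows from their groups not overlapping. Among the falls pairs 4 and 5 were the strongest for most genes, as in Thbs1 at -1.97 and -1.75 against -0.71 to -0.79 in pairs 1 to 3.

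The difference between the sets was tested as an interaction of exposure and set in limma. No gene was called, at 583 genes with an unadjusted p under 0.05, so the larger falls in pairs 4 and 5 are a description.

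Several genes of amino acid synthesis and the ATF4 stress response were higher. Psat1 (293820), a serine synthesis enzyme and target of the transcription factor ATF4, stood at 128, 131, 105, 99.3 and 106 FPKM with polyP, against 92.4, 91.6, 65.9, 67.5 and 61.1 FPKM with mutSOD1-ACM (log2 difference 0.60, limma adjusted p = 0.00493). Replicates 1 and 2 were the highest in both groups, and the groups did not overlap. Of 20 tested ATF4 targets 10 were higher and 1 lower (median 0.26); 8 or 9 were higher under the 3 scalings, 3 were lower with the block, and none was lower without polyP library 1 or 4 or mutSOD1-ACM library 3, 4 or 5. Mthfd2, a mitochondrial folate enzyme, gave 33.6, 36.8, 36.1, 36.9 and 37.1 FPKM with polyP, against 28.5, 27.5, 29.6, 27.9 and 26.1 FPKM with mutSOD1-ACM (log2 difference 0.36, adjusted p = 0.000714). Control cultures averaged 33.2 ± 1.58 FPKM of Mthfd2, nearer to the polyP level. Asns, asparagine synthetase, averaged 28.9 ± 1.38 FPKM with polyP and 23.4 ± 0.881 FPKM with mutSOD1-ACM (adjusted p = 0.000822). Psph, the last enzyme of serine synthesis, averaged 17.8 ± 0.810 FPKM with polyP and 12.8 ± 1.54 FPKM with mutSOD1-ACM (adjusted p = 0.00122).

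Ribosomal protein genes were higher by small and even amounts, and other housekeeping lists had higher members in numbers that depended on scaling. Of 40 tested cytosolic ribosomal protein genes 39 were higher with polyP and none lower, with a median log2 difference of 0.30. Rpl4 (64302), of the large subunit, stood at 671, 698, 629, 673 and 691 FPKM with polyP, against 547, 562, 506, 499 and 504 FPKM with mutSOD1-ACM (log2 difference 0.36, limma adjusted p = 0.00124). Rps12, of the small subunit, averaged 866 ± 82.1 FPKM with polyP and 658 ± 18.0 FPKM with mutSOD1-ACM (log2 difference 0.39, adjusted p = 0.00132). The ribosomal count was 34 after median-of-ratios scaling, 36 with equal summed FPKM and 18 after quantile normalization, with medians of 0.24, 0.23 and 0.11. Without these scalings the median was 0.24 in the first set of libraries and 0.40 in the second. Many ribosomal protein genes have near-identical pseudogenes, so their counts depend on how such reads were assigned, which the sources used here do not give.

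Of 25 tested proteasome subunits 21 were higher (median 0.20), but 4 under median-of-ratios scaling, 8 with equal summed FPKM and 15 after quantile normalization. The number was 9 without mutSOD1-ACM library 3, 11 without polyP library 2 or 5, and 12 without polyP library 4 or mutSOD1-ACM library 5. Psmd14, the deubiquitinase of the lid, averaged 67.5 ± 2.95 FPKM in polyP and 55.5 ± 2.42 FPKM in mutSOD1-ACM cultures (limma adjusted p = 0.00642). Of 20 aminoacyl-tRNA synthetases 11 were higher (median 0.16; 6, 6 and 9 under the 3 scalings, and 13 higher and 1 lower with the block). Yars, the tyrosyl enzyme, averaged 69.9 ± 1.51 FPKM with polyP and 57.5 ± 0.801 FPKM with mutSOD1-ACM (adjusted p = 0.0018). Of 27 splicing factors 15 were higher (median 0.17; 8, 7 and 8 under the scalings). Hnrnpf, an RNA-binding regulator of splicing, averaged 250.1 ± 11.1 FPKM in polyP and 197 ± 17.1 FPKM in mutSOD1-ACM cultures (adjusted p = 0.00249). None of these 3 lists had a lower member, under the main scaling. Their part in the higher summed FPKM of the polyP libraries was not tested.

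Calls also followed the length of the gene. When the tested genes were divided into 5 classes of equal size by the span of the gene in the RefSeq annotation, 18.0% of the shortest class were called higher with polyP, and then 19.1%, 18.1%, 12.8% and, in the longest class, 6.0%. The shares called lower were 3.55%, 5.03%, 5.16%, 4.78% and 5.96% from the shortest to the longest class. Ribosomal protein genes, at a median span of 3.14 kb, fall in the shortest class, whose median is 3.9 kb. Genomic span includes introns and is not the transcript length that enters FPKM.

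Several chaperones of the endoplasmic reticulum were lower, while called heat shock genes were mostly higher. Hspa5 (25617), the main chaperone of the endoplasmic reticulum, stood at 395, 422, 367, 313 and 329.9 FPKM with polyP, against 483, 489, 476, 489 and 472 FPKM with mutSOD1-ACM (log2 difference -0.41, limma adjusted p = 0.00308). The mutSOD1-ACM values were nearly level and none overlapped. Of 19 such chaperones 6 were lower and none higher (median -0.19, and -0.11 without polyP library 5; 10 lower with the block). Hyou1, a co-chaperone of Hspa5, averaged 74.2 ± 6.62 FPKM with polyP and 102 ± 6.75 FPKM with mutSOD1-ACM (adjusted p = 0.00262), and Hsp90b1, the Hsp90 of that compartment, 363 ± 35.2 FPKM with polyP and 459 ± 11.6 FPKM with mutSOD1-ACM (adjusted p = 0.0054). Of 18 heat shock genes 6 were higher and 1 lower (median 0.09), with 2 higher under each of the 3 scalings, 3 without polyP library 1 or 2 or mutSOD1-ACM library 3 or 4, and 9 higher and 4 lower with the block. Bag3 (293524), a co-chaperone of selective autophagy, was the lower one, with 8.65, 9.62, 12.1, 9.68 and 9.71 FPKM in polyP cultures, against 16.7, 16.9, 16.1, 13.9 and 16.4 FPKM in mutSOD1-ACM cultures (log2 difference -0.64, adjusted p = 5.88e-05). Hspd1, the mitochondrial chaperonin, averaged 196 ± 9.91 FPKM with polyP and 161 ± 9.24 FPKM with mutSOD1-ACM (adjusted p = 0.00268).

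Metabolic gene groups had small medians, from -0.03 to 0.16, while some members differed more. Members ranged from -0.73 to 0.45 in the glycolysis and hypoxia list and from -0.76 to 0.31 in the cholesterol list. Over all genes tested 14.8% were called higher and 4.9% lower. Of 20 NRF2 and antioxidant genes 6 were higher and none lower (median 0.16); 1, 2 and 3 were higher under the 3 scalings, 3 without any 1 of polyP libraries 1 and 2 and mutSOD1-ACM libraries 3 to 5, and with the block 12 were higher and 2 lower. Prdx6, a peroxiredoxin, averaged 105 ± 9.03 FPKM in polyP and 83.5 ± 7.32 FPKM in mutSOD1-ACM cultures (limma adjusted p = 0.00822). Of 23 genes of glycolysis and hypoxia 10 were higher and 3 lower (median 0.15); 2, 5 and 5 were higher and 3, 4 and 3 lower under the 3 scalings, and with the block 12 were higher and 7 lower. Without polyP library 2 or mutSOD1-ACM library 3 or 5 the number higher was 6, and without polyP library 4 or 5 or mutSOD1-ACM library 3 the number lower was 1. Egln3, an oxygen-sensing prolyl hydroxylase, averaged 9.50 ± 0.998 FPKM in polyP and 6.71 ± 1.07 FPKM in mutSOD1-ACM cultures (adjusted p = 0.0099). Of 33 nuclear-encoded respiratory chain genes 9 were higher and none lower (median 0.14), 2, 3 and 5 under the scalings, 21 with the block (where 2 were lower), and 4 or 5 without polyP library 1 or 2 or mutSOD1-ACM library 3. Of 19 cholesterol synthesis genes 4 were lower and none higher (median -0.03, between -0.09 and 0.06 when 1 library was left out), 2 were lower without polyP library 4, and with the block 6 were lower and 8 higher. Srebf2, the factor that drives this pathway, averaged 77.9 ± 4.40 FPKM with polyP and 95.5 ± 5.79 FPKM with mutSOD1-ACM (adjusted p = 0.00755).

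**Figure D5:**
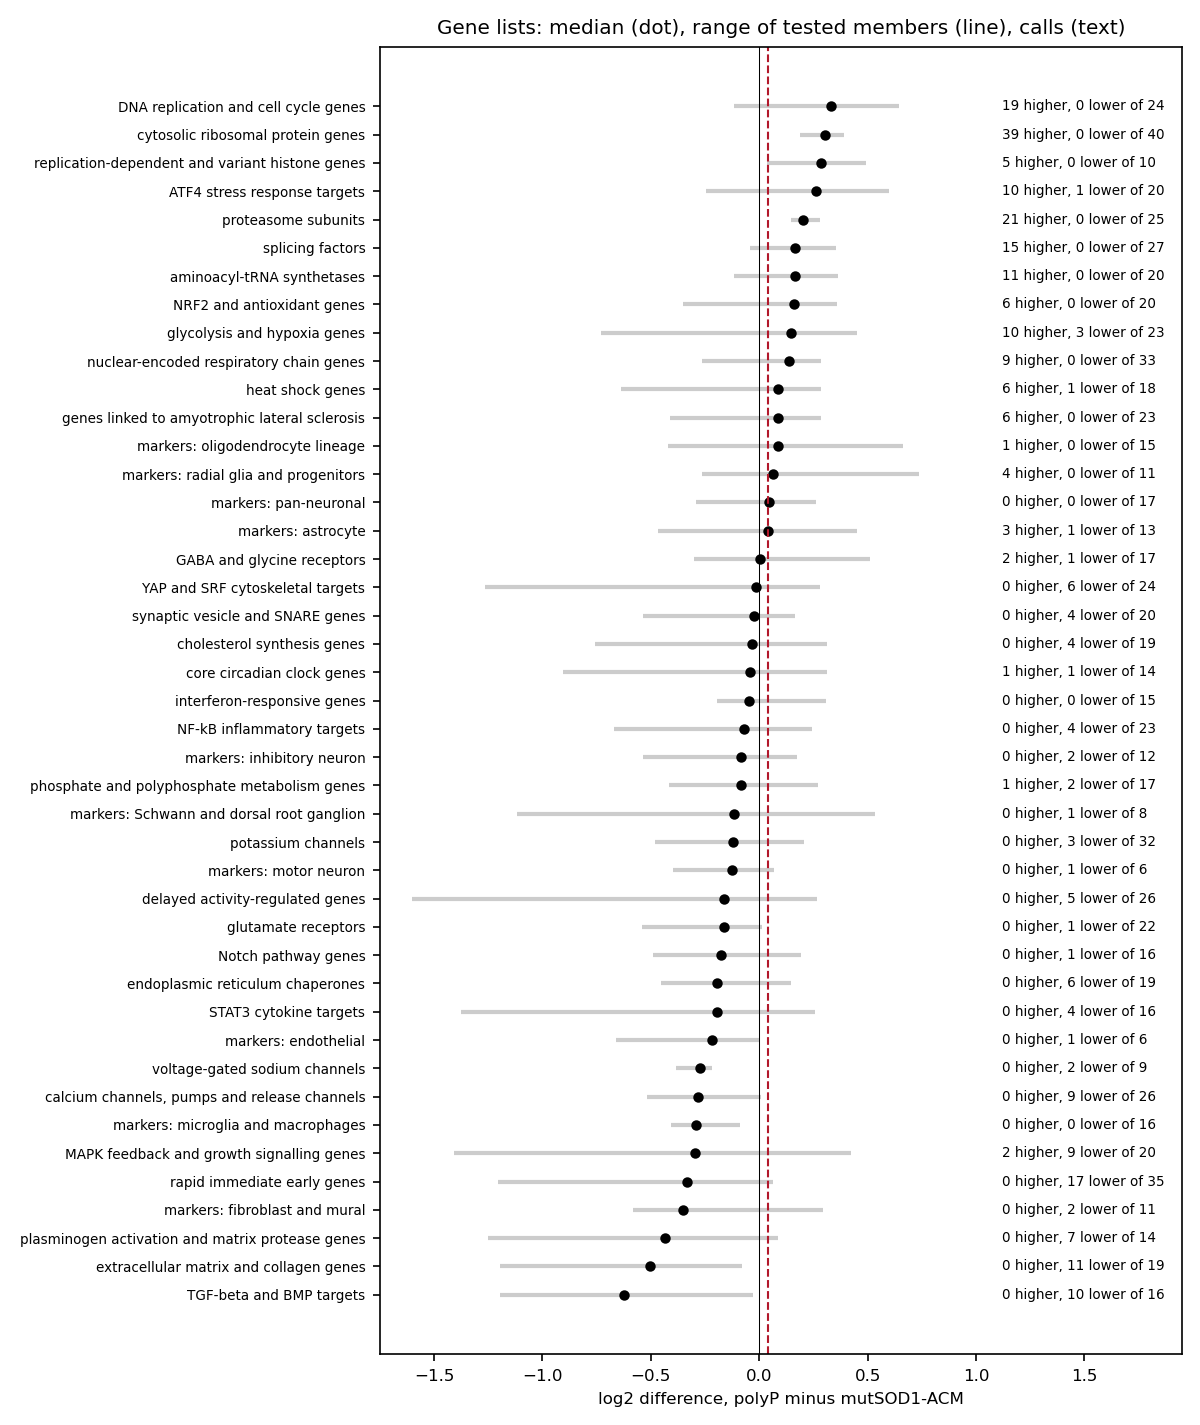
Median log2 difference of polyP minus mutSOD1-ACM (dot), range over tested members (grey line) and calls (text) for 43 gene lists, ordered by median; the dashed line is the median of all tested genes, 0.04. TGF-beta and BMP targets lie lowest at -0.62 and cell cycle genes highest at 0.33, with ribosomal protein genes in a narrow range at 0.30.

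All called genes of the calcium, sodium and potassium channel lists were lower, and their number was larger with the replicate block. Over all genes tested the share called lower rose from 4.9% to 17.8% with the block. Of 26 genes of calcium channels, pumps and release channels 9 were lower and none higher (median -0.28); 18 were lower with the block, 2 without polyP library 2 or mutSOD1-ACM library 5, 3 without mutSOD1-ACM library 3, 4 without mutSOD1-ACM library 4 and 5 without polyP library 5. Atp2a2, the calcium pump of the endoplasmic reticulum, averaged 156 ± 20.1 FPKM in polyP and 200.4 ± 12.4 FPKM in mutSOD1-ACM cultures (log2 difference -0.37, limma adjusted p = 0.00696). Atp2b2, a plasma membrane calcium pump, averaged 9.15 ± 0.568 FPKM with polyP and 12.3 ± 1.66 FPKM with mutSOD1-ACM (adjusted p = 0.0105). Of 9 voltage-gated sodium channel genes 2 were lower (median -0.27), but all 9 with the block, and 1 to 4 when 1 library was left out (4 without mutSOD1-ACM library 2; 1 without polyP library 1, 2 or 4 or mutSOD1-ACM library 3, 4 or 5). Scn2a, a channel of the axon's initial segment, stood at 11.1, 9.98, 10.2, 9.91 and 9.25 FPKM with polyP, against 11.5, 10.5, 13.2, 14.3 and 14.4 FPKM with mutSOD1-ACM (log2 difference -0.31, adjusted p = 0.0146). Its groups overlapped by 1 value, polyP library 1 above mutSOD1-ACM library 2, and were farthest apart in replicates 4 and 5. Of 32 potassium channel genes 3 were lower (median -0.12), 10 with the block and 5 without mutSOD1-ACM library 1. Kcnk3, a leak channel, averaged 15.0 ± 1.51 FPKM in polyP and 20.3 ± 0.897 FPKM in mutSOD1-ACM cultures (adjusted p = 0.00624). No gene of these 3 lists was called higher, with or without the block. Their medians were nearer to 0 in the first set of libraries than in the second. They were -0.17 and -0.45 for the calcium list, -0.16 and -0.46 for the sodium list and -0.07 and -0.22 for the potassium list. The median gene span was 214 kb in the calcium list, 112 kb in the sodium list and 52.4 kb in the potassium list, and in the longest of the 5 classes of all genes (median 132 kb) 6.0% were called higher and 5.96% lower.

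Among all genes tested 4.9% were lower, and 17.8% with the block. Of 22 glutamate receptor genes 1 was lower (median -0.16), 7 with the block and 2 without polyP library 3 or mutSOD1-ACM library 1. That gene, Grin1 (24408), the obligate subunit of NMDA receptors, stood at 29.8, 28, 37.0, 36.8 and 34.7 FPKM with polyP, against 41.0, 39.8, 47.4, 58.8 and 59.1 FPKM with mutSOD1-ACM (log2 difference -0.54, limma adjusted p = 0.0115). Its values were lower with polyP in all 5 pairs. Of 17 genes of GABA and glycine receptors 2 were higher and 1 lower (median 0.00, and 0.14 without mutSOD1-ACM library 3), and 3 were called each way with the block. Under the 3 scalings 0, 0 and 1 were higher. None was higher without polyP library 1 or 2 or mutSOD1-ACM library 4 or 5, 1 was higher without polyP library 4 or 5 or mutSOD1-ACM library 3, and 2 were lower without polyP library 3. Gabbr1, a subunit of the metabotropic GABA receptor, was the lower one, at 182 ± 13.6 FPKM in polyP and 224 ± 14.2 FPKM in mutSOD1-ACM cultures (adjusted p = 0.00782). Of 20 synaptic vesicle and SNARE genes 4 were lower (median -0.03), and with the block 6 were lower and 1 higher; 2 were lower without polyP library 2, 4 or 5 or mutSOD1-ACM library 1 or 5. Sv2a, a vesicle glycoprotein, averaged 54.4 ± 3.23 FPKM in polyP and 74.4 ± 12.1 FPKM in mutSOD1-ACM cultures (adjusted p = 0.00598).

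Genes tied to the treatments themselves were measured too. Sod1 (24786), the rat gene, stood at 249, 258, 207, 256 and 275 FPKM with polyP, against 214, 227, 196, 235 and 242 FPKM with mutSOD1-ACM. The groups overlapped and the test was not passed (log2 difference 0.16, 95% interval -0.04 to 0.36, limma adjusted p = 0.281), but all 5 pairs were higher with polyP and the adjusted p was 0.00559 with the block. Of 23 genes linked to ALS 6 were higher and none lower (median 0.09), 3, 3 and 1 under the scalings and 10 higher and 1 lower with the block. Tardbp, which encodes TDP-43, averaged 139 ± 1.35 FPKM with polyP and 126 ± 3.75 FPKM with mutSOD1-ACM (log2 difference 0.14, adjusted p = 0.0134), a call that was lost under each of the 3 scalings. Of 17 genes of phosphate and polyphosphate metabolism 2 were lower and 1 higher (median -0.08), and 5 were called each way with the block. With the block 30.9% of all genes tested were higher and 17.8% lower. Slc20a1 (81826), a sodium-phosphate importer, gave 56.8, 60.1, 61.1, 52.5 and 55.7 FPKM with polyP, against 71.9, 69.2, 77.0, 72.5 and 81.5 FPKM with mutSOD1-ACM (log2 difference -0.37, adjusted p = 0.00132). The groups did not overlap, and control cultures averaged 79.1 ± 6.74 FPKM. Enpp1, which makes pyrophosphate outside cells, averaged 2.77 ± 0.288 FPKM in polyP and 4.05 ± 0.640 FPKM in mutSOD1-ACM cultures (adjusted p = 0.00632). The 1 higher member was Ppa1, a pyrophosphatase, at 64.9 ± 4.82 FPKM in polyP and 53.6 ± 3.07 FPKM in mutSOD1-ACM cultures (adjusted p = 0.0397). Its call was lost under each of the 3 scalings and when any 1 library other than polyP library 3 or mutSOD1-ACM library 2 was left out.

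Clock and Notch genes gave single calls, where 14.8% of all genes tested were higher and 4.9% lower. With the block those shares were 30.9% and 17.8%. Of 14 core clock genes 1 was lower and 1 higher (median -0.04), 3, 3 and 1 were lower under the 3 scalings, and 4 were lower and 2 higher with the block. Bhlhe40 (79431), a repressor of the clock that many stimuli induce, stood at 9.13, 9.42, 11.4, 6.19 and 6.56 FPKM with polyP, against 17.9, 17.8, 16.4, 14.2 and 16.6 FPKM with mutSOD1-ACM (log2 difference -0.91, limma adjusted p = 0.00136). Its groups did not overlap. Nr1d2, a nuclear receptor of the clock, averaged 5.59 ± 0.392 FPKM in polyP and 4.30 ± 0.352 FPKM in mutSOD1-ACM cultures (adjusted p = 0.0136), a call lost under median-of-ratios scaling and equal summed FPKM. Without polyP library 2 or mutSOD1-ACM library 2 the clock list had 2 genes higher, and without polyP library 3 or mutSOD1-ACM library 4 it had 2 lower. Of 16 Notch pathway genes 1 was lower and none higher (median -0.18); 9 were lower and 3 higher with the block, 2 were lower without mutSOD1-ACM library 5, and none was called without polyP or mutSOD1-ACM library 4. That gene was Notch3, a receptor, at 14.2 ± 1.37 FPKM in polyP and 19.5 ± 2.54 FPKM in mutSOD1-ACM cultures (adjusted p = 0.0182).

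Cell type markers gave few calls between the exposures. For comparison, 14.8% of all genes tested were higher and 4.9% lower, and 30.9% and 17.8% with the block. None of 17 pan-neuronal markers was called (median 0.04; 3 higher and 2 lower with the block), and their summed level was 2590 to 3437 FPKM over polyP and 2649 to 3094 FPKM over mutSOD1-ACM libraries. Of 6 tested motor neuron markers 1 was lower, and 3 with the block: Ret, the receptor of glial-derived neurotrophic factor, averaged 6.79 ± 0.780 FPKM in polyP and 9.24 ± 0.766 FPKM in mutSOD1-ACM cultures (limma adjusted p = 0.00182). Of 12 inhibitory neuron markers 2 were lower, 1 without polyP library 2, 4 or 5 or mutSOD1-ACM library 3, 4 or 5, and with the block 5 were lower and 1 higher. Slc32a1 (83612), the vesicular transporter of GABA and glycine, stood at 41.1, 38.3, 42.8, 48.8 and 43.6 FPKM with polyP, against 59.8, 57.4, 57.9, 70.5 and 67.5 FPKM with mutSOD1-ACM (log2 difference -0.53, adjusted p = 0.00276). The gap between its groups was wider than the spread within either.

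Of 13 astrocyte markers 3 were higher (2 under each scaling) and 1 lower (median 0.04, between -0.06 and 0.16 when 1 library was left out). Aldoc, the aldolase of astrocytes, averaged 112 ± 4.56 FPKM in polyP and 87.5 ± 6.70 FPKM in mutSOD1-ACM cultures (limma adjusted p = 0.00378). Glul, glutamine synthetase, averaged 186 ± 27.6 FPKM with polyP and 136 ± 22.9 FPKM with mutSOD1-ACM, and the lower marker, Fgfr3, a growth factor receptor, 94.5 ± 4.30 FPKM with polyP and 131 ± 11.8 FPKM with mutSOD1-ACM (adjusted p = 0.0146 and 0.00875). Gfap, the astrocyte filament protein, gave 19.5, 20.7, 28.8, 12.9 and 14.8 FPKM with polyP, against 20.6, 20.1, 26.7, 16.2 and 18.3 FPKM with mutSOD1-ACM, and the values overlapped (log2 difference -0.11, adjusted p = 0.822). Mbp (24547), myelin basic protein, showed the division of the libraries: it stood at 216, 212, 328, 9.61 and 7.94 FPKM in polyP libraries 1 to 5, against 169, 177, 332, 8.36 and 6.79 FPKM in mutSOD1-ACM libraries 1 to 5. Replicates 4 and 5 were low under both exposures, while the exposures did not differ beyond that spread (log2 difference 0.20, adjusted p = 0.954; 0.0107 with the block). Of 15 oligodendrocyte lineage markers 1 was higher, Olig1, a transcription factor of the lineage (log2 difference 0.66, adjusted p = 0.0472). That call was lost under each of the 3 scalings and when polyP library 1, 2, 3 or 5 or mutSOD1-ACM library 3, 4 or 5 was left out, and the list's median, 0.08, ran from -0.16 to 0.59 when 1 library was left out; with the block 7 were higher and 1 lower.

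Of 16 tested markers of microglia and macrophages none was called (median -0.29), 6 were lower with the block, and the median was -0.49 in the first set of libraries and 0.09 in the second. Their summed level ran from 102 to 306 FPKM over polyP and from 87.8 to 432 FPKM over mutSOD1-ACM libraries, highest in library 3 of each. Of 11 fibroblast and mural markers 2 were lower (median -0.35), and 0 or 1 was lower when any 1 library other than polyP library 2 was left out; 6 were lower and 1 higher with the block. Their summed level was 2546 to 3203 FPKM over polyP and 2531 to 3513 FPKM over mutSOD1-ACM libraries, so the sums overlapped although the list's median was -0.35. This list itself holds collagen genes, and a sum rests mostly on its most abundant members. The part of these cells in the matrix result was not tested. Of 6 endothelial markers 1 was lower (3 with the block), Flt1, a VEGF receptor, at 6.37 ± 1.08 FPKM in polyP and 10.6 ± 1.15 FPKM in mutSOD1-ACM cultures (limma adjusted p = 0.000461). Of 8 markers of Schwann cells and dorsal root ganglion 1 was lower (2 without polyP library 3), Egr2, which also stands in the immediate early list.

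For most genes the interval bounded the difference on the log2(FPKM + 1) scale. For 8832 of the 11887 genes (74.3%) the 95% interval of the log2 difference lay within 0.5 either side of 0, and this held for 7203 of the 9545 genes that were not called. Bdnf and Sod1 are examples, at intervals of -0.31 to 0.17 and -0.04 to 0.36. Fos, Npas4 and Mbp are not, since their libraries differed too much within each group. The median standard error over all genes was 0.0996 on the log2 scale. The number of genes with an interval within 0.5 depended on the value added to FPKM before the log. It was 7736 with 0.1 added and 10568 with 5 added.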

How the data were processed

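Poly(A)-enriched RNA of 19 cultures was sequenced. HISAT and the rat build rn6 are named in the submitters' processing notes. The authors deposited 1 table of FPKM per gene and library, with symbols and identifiers, per the file headers. The program that made the FPKM values, its annotation and any further scaling of libraries are not given in these sources, and total depth is unknown, so no counting interval is given. Per the labels' protocols each condition had 4 to 5 independent cultures, while the design text speaks of quadruplicates.

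Values were tested as log2(FPKM + 1) in R 4.3.3 with limma 3.58.1 (empirical Bayes with trend and robust estimation, statmod 1.5.0), with all 19 libraries in 1 fit and polyP minus mutSOD1-ACM as the contrast. A gene was tested at 1 FPKM in at least 4 libraries and called at a two-sided Benjamini-Hochberg adjusted p under 0.05 over 11887 genes. Every adjusted p of a gene is from limma, and log2 differences on this scale understate the change of low genes. The script was tested on simulated data. Relative depth was read from the step of 1 fragment in rarely detected genes, where 96.7% of 576 values lay within 0.1 fragment of a whole number.

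Replicate numbers were taken from the labels' titles. Deviations from the group means correlated at 0.688, 0.763, 0.764, 0.71 and 0.744 across genes for pairs 1 to 5. Differently numbered libraries correlated about as closely between replicates 1 and 2 (0.755 and 0.675) and between replicates 4 and 5 (0.715 and 0.683). The numbers are therefore not shown to pair single libraries. The fit with the replicate number as a block stands beside most of the list results it changes. Where it does not, the block gave 12 MAPK feedback and growth signalling genes lower and 3 higher. It gave 13 ATF4, 40 ribosomal, 22 cell cycle, 25 proteasome and 20 splicing genes higher. It also gave 4 astrocyte markers and 1 marker of Schwann cells and dorsal root ganglion higher. Named genes were the 10 called genes with the largest rise and the 10 with the largest fall, without overlap between the groups (2 symbols that are only identifiers were left out), up to 4 members of each list with the smallest p, and 9 fixed genes. The comparison, the 43 gene lists (817 of 890 entries tested) and this rule were chosen with earlier results of these data known. A list is described by counts and its median, without a set test, since its members are not independent. The remaining alternatives are scalings, filters, pseudocounts, the set of libraries as a term, each set alone and each library left out; 3 that join the block or the set term with a scaling were chosen after seeing the data. Values of some list members are not reported here.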

Additional observations from a re-analysis of the deposited data

Results flagged for a closer look

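Of 366 groups of 5 libraries examined, 22 held a library farther from the rest than Dixon's 95% critical value of 0.71 for the gap over the range; chance flags about 1 in 20 groups. Replicate 3 held 16 of them, 10 in the polyP group and 6 in the mutSOD1-ACM group.

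In polyP library 3, Flnc (94.7 FPKM), Plat (229), Cx3cr1 (11.2), Csf1r (19.6) and Esam (7.18) stood above the other polyP libraries. In the same library Farsb (35.2 FPKM), Hnrnpa1 (645), Ppa1 (56.4), H2afx (109.6) and Glul (136) stood below them. In mutSOD1-ACM library 3, Nr1d2 (4.91 FPKM), Cx3cr1 (15.9), Ptprc (4.33), Esam (8.45) and Kdr (2.33) stood above the other mutSOD1-ACM libraries, and Ahsa1 (58.4) below them. Cx3cr1, Csf1r and Ptprc mark microglia and macrophages, and Esam and Kdr endothelial cells. With the replicate block Cx3cr1, Csf1r, Ptprc and Esam were called lower with polyP (limma adjusted p = 0.00912, 0.00643, 0.0398 and 0.00383, against 0.703, 0.731, 0.728 and 0.418 without it).

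Of the other 6 values, those above their group were Ifi27 at 11.7 FPKM in polyP library 2, and Ctgf at 1118 FPKM and Nefh at 4.72 FPKM in mutSOD1-ACM library 5. Those below their group were Slc17a6 at 17.0 FPKM in polyP library 5, Sqle at 121 FPKM in mutSOD1-ACM library 1 and Bag3 at 13.9 FPKM in mutSOD1-ACM library 4. Nefh was called lower with polyP under the block (adjusted p = 0.0472, and 0.339 without it). The cause was not tested for any of them.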

How the results depend on the processing

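Against 1760 genes higher and 582 lower, the number higher was 742 after median-of-ratios scaling, 787 with equal summed FPKM and 1115 after quantile normalization. With the set of libraries as a term, 2998 were higher and 1289 lower. The first set alone gave 60 higher and 56 lower, at 3 libraries against 3, and the second alone 2693 higher and 1836 lower, at 2 against 2. With the replicate block 3669 were higher and 2118 lower. Of the main calls, whose log2 differences the block leaves unchanged, only 1 was lost. The block joined to equal summed FPKM gave 2230 higher and 2917 lower, the block joined to median-of-ratios scaling 2469 and 2792, and the set term joined to equal summed FPKM 1686 and 1782. Leaving out 1 library gave 1173 to 1793 genes higher and 391 to 588 lower, with 1173 without polyP replicate 2. The other settings moved both counts by less than 1.5 times. Hsp90ab1, higher at 0.18 (limma adjusted p = 0.0146), gave the 1 change of sign of a named gene that involved a call. It went to -0.0409 (adjusted p = 0.509) after quantile normalization. Of the other values of named genes under the alternatives 4250 kept their side of the threshold, 290 fell short of it and 200 passed it. Genes not called could change sign and still be among the 4250. Npas4, for example, ran from -0.36 to 0.21 and Fos from -0.24 to 0.07. The setting with the most that fell short was the first set alone. No gene was called for an interaction of exposure and set under any alternative run. Except where such a value is given beside it, the block changed no call of a gene named in the text. The causes were not tested. Relative depth limits low genes: near 1 FPKM a library's value rests on few fragments, to an extent that is not known.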
